A study of Homo sapiens with 6 samples.

Results

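The genes that write, copy, read and remove DNA methylation were examined in K562 cells that depend on 1 of 2 forms of EP400. The set was 10 genes, taken by symbol from the 60609 genes of the deposited count files: DNMT1, DNMT3A, DNMT3B, UHRF1, UHRF2, TET1, TET2, TET3, TDG and MBD2. All 10 were expressed at a level that could be tested, among 19114 genes tested.

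DNA methylation is set on cytosines that precede a guanine by the de novo enzymes DNMT3A and DNMT3B, and it is copied to the new strand after replication by DNMT1, which UHRF1 brings to hemimethylated sites. TET1, TET2 and TET3 oxidise methylcytosine, TDG cuts out the oxidised bases for repair, and MBD2 binds methylated sites as part of the NuRD complex. Leukaemias often carry mutations in DNMT3A or TET2, which makes the family a familiar one in blood cells.

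K562 is an established human leukaemia line with erythroid features. In both groups the endogenous EP400, a chromatin remodelling ATPase of TIP60, carried a homozygous dTAG degradation tag, and a second EP400 was expressed from the AAVS1 safe harbour: the wild-type protein (WT) or one without the SANT and HD domains that hold TRRAP (Delta-TRRAP). All 6 libraries, 3 per group, came from cells given 500 nM dTAGV-1, the degrader of the tagged protein, for 24 h. Each line was 1 clone, so clone and genotype cannot be told apart, and p-values measure the spread between cultures of those clones.

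The libraries held 35076835 to 42616061 counts of uniquely mapped poly(A) RNA reads. The EP400 count sums tagged and transgene transcripts. It does not check the degradation, which acts on the protein. The change in this count did not pass the test (log2 fold change 0.14 ± 0.11, SE, adjusted p = 0.272). The cell type label is lymphoblast, but MS4A1 had no count, and 4 of 9 lymphoid markers were high enough to test. All 15 erythroid markers were tested, of which 9 were higher and 4 lower in Delta-TRRAP, beside 30.7% higher and 27.6% lower over all tested genes. Of the 15, 13 had a mean of at least 1000 normalized counts, a level at which 22.1% of genes were higher and 45.9% lower. In the myeloid list 5 of 7 and in the fibroblast list 5 of 10 markers were tested, with ELANE, LUM and PDGFRA at 0 in every library. Among those tested, MPO (myeloid) and COL1A2 and PDGFRB (fibroblast) reached the filter only through their Delta-TRRAP libraries. Of the other 4 myeloid markers 0 rose and 1 fell past the test. Of the other 3 fibroblast markers 1 rose and 0 fell, where 30.7% of all tested genes rose and 27.6% fell. COL1A2, a fibroblast collagen gene, averaged 1.62 normalized counts in WT and 876 in Delta-TRRAP. Of the other 3, VIM rose (log2 fold change 0.99, adjusted p = 1.84e-10, edgeR). COL1A1 (log2 fold change 0.061) and DCN (-0.41) did not pass the test (adjusted p = 0.862 and 0.454, edgeR). Summed over each list, WT libraries held 239820 to 242490 normalized counts and Delta-TRRAP libraries 179680 to 182470 for the erythroid list, 16290 to 16868 and 4171 to 4698 for the lymphoid list, 8069 to 8860 and 926 to 989 for the myeloid list, and 12466 to 13296 and 25596 to 27115 for the fibroblast list. Each sum was carried by 1 gene, namely TFRC, PTPRC, LYZ and VIM in that order. Without TFRC the other 14 erythroid markers went the opposite way, with sums between 46280 and 50377 in WT libraries and between 86455 and 94005 in Delta-TRRAP libraries. The part of these shifts in the results below was not tested.

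Promoter sequence is shown for the 2 genes that fell by more than 2-fold, for DNMT1, and for the gene that rose. The RefSeq promoter table (GRCh38.p14) held 21 windows for the 10 genes, each running from 250 bases before a start to 50 after it. The 3 stretches below are the 250 bases before a start, 5′ to 3′ on the gene's strand, and contain no annotated exon. Capitals mark a match to the E2F letters described after them.
UHRF1, chr19:4909894-4910143, plus strand: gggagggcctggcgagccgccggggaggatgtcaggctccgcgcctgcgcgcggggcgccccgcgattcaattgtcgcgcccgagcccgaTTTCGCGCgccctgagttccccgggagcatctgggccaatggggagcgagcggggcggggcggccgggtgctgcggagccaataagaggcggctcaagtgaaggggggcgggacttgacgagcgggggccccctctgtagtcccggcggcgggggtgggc
DNMT3B, chr20:32779602-32779851, plus strand: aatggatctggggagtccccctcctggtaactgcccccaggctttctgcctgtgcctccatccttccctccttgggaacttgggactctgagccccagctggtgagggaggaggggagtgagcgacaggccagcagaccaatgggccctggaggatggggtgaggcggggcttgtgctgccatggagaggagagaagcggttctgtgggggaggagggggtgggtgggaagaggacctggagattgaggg
DNMT3A, chr2:25341926-25342175, minus strand: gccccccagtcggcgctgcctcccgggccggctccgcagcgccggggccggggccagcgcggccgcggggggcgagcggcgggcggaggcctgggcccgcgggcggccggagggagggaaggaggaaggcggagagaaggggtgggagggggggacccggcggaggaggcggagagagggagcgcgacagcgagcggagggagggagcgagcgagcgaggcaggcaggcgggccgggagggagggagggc

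The UHRF1 window shown held 40 CpG sites and the DNMT3A window shown 46, whereas the DNMT3B window held 3, against a median of 14 over 35116 windows. The window shown for DNMT3A is its richest, and its other windows held 18 to 28. Those of UHRF1 not shown in full held 36 and 46. Across the 21 windows CpG sites ranged from 3 to 46, and the DNMT3B window was the poorest in CpG of those searched. It is an internal start, 17467 bases inside the annotated GENCODE gene, as are the starts shown for UHRF1 (7064 bases), DNMT3A (665 bases) and DNMT1 (36333 bases). The annotated gene starts of DNMT3B, UHRF1 and DNMT1 lie in none of the windows, so the sequence there was not searched. In all, 11 letter patterns were searched on both strands. They were chosen after the expression values and some of the matches had been seen, so the matches below are descriptions only. Percentages are of single windows, whereas a gene counts if any of its windows holds the pattern. Some genes have several windows, so gene counts cannot be compared directly with the percentages.

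The 4 E2F strings TTTCGCGC, TTTGGCGC, TTTCCCGC and TTTGCCGC were held by 0.515%, 0.652%, 1.63% and 0.607% of all windows, and at least 1 of them by 3.31%. Among the 10 genes they were found at UHRF1 and DNMT1. The shorter CGCGAAA, which overlaps the first string, was in 1.32% of windows and at the same 2 genes. At UHRF1 there was a second match 14 bases before another start, and at DNMT1 a match that begins 2 bases before the start and crosses it. Both read on the opposite strand, and 30 bases around each are shown with the match in capitals.
UHRF1, chr19:4909476-4909505, plus strand: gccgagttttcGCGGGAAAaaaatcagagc
DNMT1, chr19:10194937-10194966, minus strand: catcggtttccGCGCGAAAagccggggcgc

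The other patterns were commoner or fell elsewhere. GGGCGG (GC box) was in 45.0% of windows and at 6 of the genes, CCAAT in 34.6% and at 5, CACGTG (E-box) in 7.26% and at 4, and CCGGAAG (ETS) in 10.3% and at 0. The NRF1 motif was in 5.78% and at DNMT1 and UHRF1, and the ZBTB33 palindrome in 0.424% and, of the 10, at UHRF2.

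Levels are given as normalized counts, which are counts scaled by the effective library size (TMM, from the genes tested). Changes are log2 fold changes of Delta-TRRAP over WT with their standard error, and adjusted p is Benjamini-Hochberg over all tested genes in edgeR's quasi-likelihood test. A gene was called when its adjusted p was at most 0.01 and it changed at least 2-fold. In bulk RNA, fewer cells of a type and less RNA per cell cannot be told apart.

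UHRF1, which recognises hemimethylated DNA and recruits DNMT1, showed the largest fall of the 10. It had 3341, 3369 and 3603 normalized counts in the WT libraries and 1423, 1422 and 1351 in Delta-TRRAP. Every Delta-TRRAP library lay far below every WT library. The log2 fold change was -1.30 ± 0.053 (adjusted p = 1.24e-11, edgeR), which left 40.7% of the WT level. UHRF1 lies at chr19:4903080-4962154 on the plus strand (GRCh38, GENCODE).

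UHRF2, its paralogue, fell far less. It had 1558, 1465 and 1570 normalized counts in WT and 1246, 1252 and 1326 in Delta-TRRAP. The groups did not overlap, and the log2 fold change was -0.26 ± 0.054 (adjusted p = 0.000477, edgeR). Under scaling by the upper quartile or by library size it no longer passed the test (log2 fold change -0.16 and -0.13, adjusted p = 0.0177 and 0.0444).

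DNMT3B, a de novo methyltransferase, was the other called gene. It had 5975, 5961 and 6395 normalized counts in WT and 2703, 2802 and 2677 in Delta-TRRAP. The groups were widely separated, with a log2 fold change of -1.16 ± 0.051 (adjusted p = 3.04e-11, edgeR) and 44.6% of the WT level remaining.

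DNMT3A, the other de novo enzyme, moved the opposite way from a low level. It had 514, 489 and 513 normalized counts in WT and 642, 663 and 589 in Delta-TRRAP. All 3 Delta-TRRAP libraries were above all 3 WT libraries, and the log2 fold change was 0.32 ± 0.067 (adjusted p = 0.000559, edgeR). It was the only one of the 10 that rose past the test.

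DNMT1, the maintenance enzyme, was the most counted of the genes. It had 10895, 11119 and 11687 normalized counts in WT and 8831, 9452 and 8290 in Delta-TRRAP. The groups did not overlap, and the fall was modest, with a log2 fold change of -0.34 ± 0.057 (adjusted p = 6.98e-05, edgeR).

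**Figure D1:**
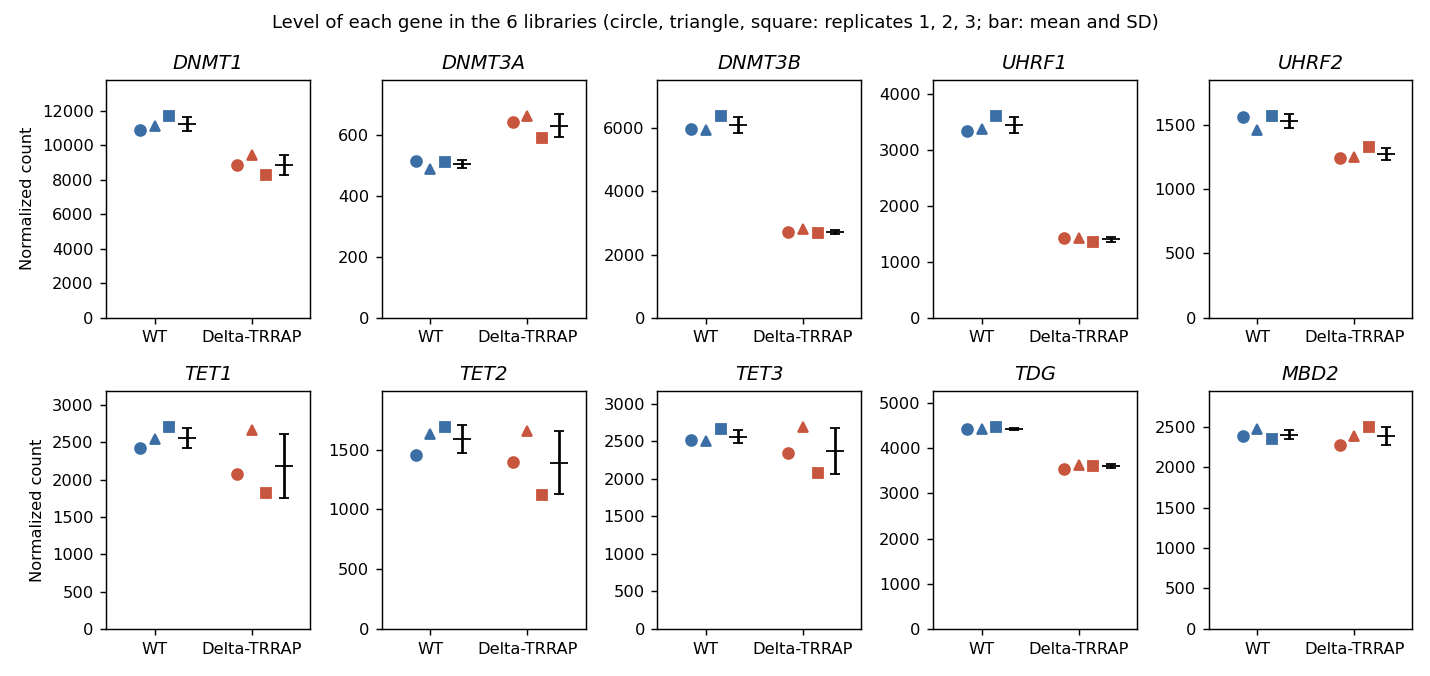
Normalized counts (vertical axis, from 0) of each of the 10 genes in the 3 WT and 3 Delta-TRRAP libraries, with replicates as circle, triangle and square and the group mean ± SD beside them. UHRF1 and DNMT3B separate widely, while for TET1, TET2 and TET3 replicates 1 and 3 of Delta-TRRAP lie below the WT libraries and replicate 2 does not.

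The TET dioxygenases showed no change past the test, and their Delta-TRRAP libraries were spread. TET1 had 2423, 2549 and 2700 normalized counts in WT and 2078, 2660 and 1825 in Delta-TRRAP. TET2 had 1458, 1628 and 1686 in WT and 1398, 1651 and 1121 in Delta-TRRAP. TET3 had 2520, 2504 and 2662 in WT and 2350, 2686 and 2083 in Delta-TRRAP.

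For all 3 genes the groups overlapped, with replicate 2 the highest and replicate 3 the lowest of the Delta-TRRAP libraries. Replicates 1 and 3 were below every WT library in each of them. The log2 fold changes were -0.22 ± 0.099 for TET1, -0.19 ± 0.10 for TET2 and -0.11 ± 0.074 for TET3 (adjusted p = 0.0559, 0.106 and 0.201, edgeR). The 95% interval of the TET1 change ran from -0.43 to -0.014, and that of TET3 from -0.27 to 0.048.

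Whether they passed depended on Delta-TRRAP replicate 2 and on the filter. Without that library all 3 passed the test, at -0.38 (adjusted p = 1.13e-05), -0.33 (0.000638) and -0.20 (0.0048), edgeR. Without Delta-TRRAP replicate 3 instead, the changes shrank to -0.11 (adjusted p = 0.202), -0.063 (0.445) and -0.027 (0.696), edgeR. With all 6 libraries and no filter on low counts, TET1 and TET2 passed, at -0.25 and -0.22 (adjusted p = 7.82e-05 and 0.00144, edgeR). With TMM factors from all genes with a count and the filter kept, the changes were again -0.25 and -0.22. They then did not pass (adjusted p = 0.0285 and 0.0604, edgeR). At a minimum mean of 50 neither passed, at -0.15 and -0.12 (adjusted p = 0.183 and 0.305, edgeR). The log2 difference of Delta-TRRAP replicate 2 over replicate 3 was 0.54 for TET1, 0.56 for TET2 and 0.37 for TET3, beside 0.65 for EP400 and 0.0086 for TDG. It was 0.19 for DNMT1, 0.17 for DNMT3A and -0.084 for UHRF2, whose annotated exons span 15379, 13781 and 9919 bases. Those of TET1, TET2 and TET3 span 9612, 16474 and 12943 bases. Over 11442 expressed genes its median rose with exon length, from -0.086 in the shortest of 4 bins of near-equal gene number to 0.12 in the longest, a comparison made after the TET spread had been seen. The part of gene length in the TET values was not tested.

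TDG, the glycosylase that acts downstream of the TET enzymes, was the steadiest gene between replicates. It had 4416, 4420 and 4462 normalized counts in WT and 3550, 3638 and 3617 in Delta-TRRAP. The groups did not overlap, and the log2 fold change was -0.30 ± 0.047 (adjusted p = 3.87e-05, edgeR).

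MBD2, the reader, had 2390, 2467 and 2350 normalized counts in WT and 2269, 2388 and 2493 in Delta-TRRAP. The groups overlapped, with a log2 fold change of -0.012 ± 0.052 (adjusted p = 0.853, edgeR) and a 95% interval of -0.12 to 0.10. Its sign turned positive under 3 other settings of scaling or filtering and without Delta-TRRAP replicate 1, so no direction can be given.

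Of the 10 genes, 2 were called, both lower, where 6.08% of all tested genes were called lower and 16.5% higher (22.6% in all). Without the fold threshold 5 fell and 1 rose, and 4 did not pass. Over all tested genes 27.6% fell and 30.7% rose past the same test (58.3% in all), but 9 of the 10 genes had a mean of at least 1000 normalized counts. Among the 6804 such genes 45.9% fell and 22.1% rose, and 3.89% were called lower and 2.41% higher. The share of the 10 that fell was therefore near the background for genes of that level. For 6 of the 10 genes, 5 lower and 1 higher, WT and Delta-TRRAP libraries did not overlap, against 71.1% of all tested genes (33.7% lower and 37.4% higher). Their median log2 fold change was -0.24, beside 0.030 for all tested genes and -0.14 for those with at least 1000 normalized counts. Scaling by library size raised the median of all genes by 0.14.

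**Figure D2:**
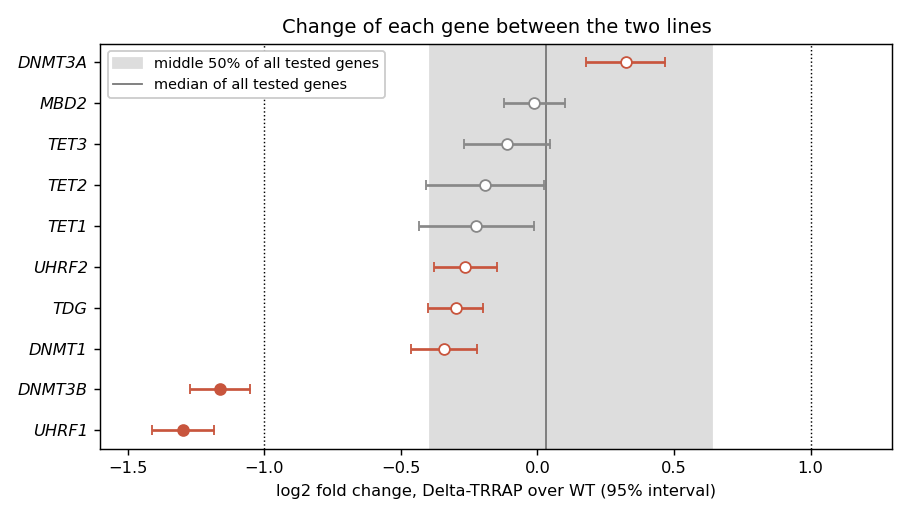
Log2 fold change of Delta-TRRAP over WT (horizontal axis) with its 95% interval for each of the 10 genes, ordered by size; filled points are called, red points pass the adjusted p alone, grey points do not pass, and dotted lines mark a 2-fold change. UHRF1 (-1.30) and DNMT3B (-1.16) lie outside the grey band of the middle 50% of tested genes, and DNMT3A (0.32) is the one gene that rose.

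Levels can be compared between genes only per length. Per 1000 bases of annotated exon, the WT order of normalized counts was TDG (907 ± 5.16, SD, n = 3), DNMT3B (889 ± 35.8), DNMT1 (730 ± 26.6), UHRF1 (668 ± 28.0), MBD2 (423 ± 10.5), TET1 (266 ± 14.5), TET3 (198 ± 6.71), UHRF2 (154 ± 5.81), TET2 (96.6 ± 7.19) and DNMT3A (36.7 ± 1.01). TDG and DNMT3B differed by less than their spread. The order depends on the length used: per 1000 bases of the longest transcript DNMT1 (1570) led DNMT3B (1400) and TDG (1390), and UHRF2 (411) stood above TET1 (266) and TET3 (212).

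In Delta-TRRAP the order per 1000 bases of annotated exon was TDG (737 ± 9.43), DNMT1 (576 ± 37.8), MBD2 (419 ± 19.7), DNMT3B (397 ± 9.57), UHRF1 (272 ± 8.06), TET1 (228 ± 44.6), TET3 (183 ± 23.3), UHRF2 (129 ± 4.51), TET2 (84.4 ± 16.1) and DNMT3A (45.8 ± 2.76). MBD2 and DNMT3B overlapped, as did UHRF1 and TET1, and TET1 and TET3. Per longest transcript DNMT1 (1240) again stood above TDG (1130).

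Within the methyltransferases, DNMT3B made up 53.7% ± 0.29 (SD, n = 3) of the summed level per exon length in WT and 39.0% ± 1.03 in Delta-TRRAP. DNMT1 made up 44.1% ± 0.32 and 56.5% ± 0.97, and DNMT3A 2.22% ± 0.082 and 4.50% ± 0.097. With the longest transcript as length DNMT1 led in both groups, at 52.0% and 64.2%, so the order of DNMT1 and DNMT3B in WT depended on the length used.

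Ratios within one library do not depend on the scaling between libraries. The DNMT3B to DNMT3A ratio per exon length was 24.2-fold in WT and 8.66-fold in Delta-TRRAP, a log2 difference of -1.48. The UHRF1 to UHRF2 ratio went from 4.33-fold to 2.12-fold (-1.03), and DNMT1 to DNMT3A from 19.9-fold to 12.6-fold (-0.66). With the longest transcript as length, UHRF1 made up 66.0% ± 0.90 of the UHRF pair in WT and 48.7% ± 1.61 in Delta-TRRAP, so UHRF2 was then the higher of the pair in Delta-TRRAP, while the log2 difference between groups does not depend on the length. In these 3 ratios the groups did not overlap, and the two-sided exact permutation p was 0.1 for each, the smallest that 3 against 3 allows (0.2 adjusted over 6 ratios).

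The TET ratios overlapped between groups. TET1 to TET2 was 2.76-fold and 2.70-fold, TET3 to TET2 2.05-fold and 2.19-fold, and TET1 to TET3 1.34-fold and 1.23-fold (exact permutation p = 0.7, 0.3 and 0.2). TET1 took 47.1% to 47.7% of the family's level per exon length in WT libraries and 44.8% to 47.4% in Delta-TRRAP libraries.

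**Figure D3:**
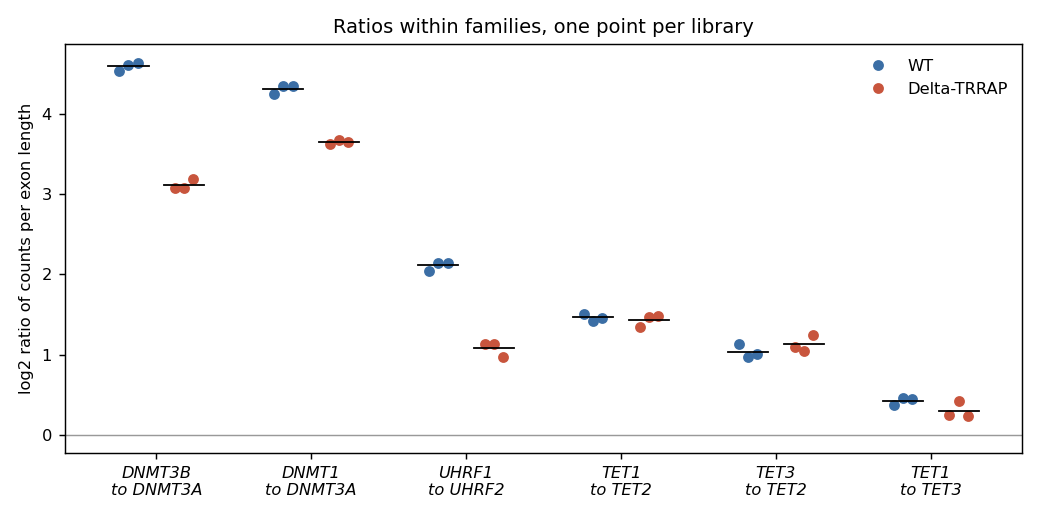
Log2 ratio of normalized counts per exon length within each library (vertical axis) for 6 pairs of related genes, with 1 point per library and a bar at the group mean. The 3 pairs on the left are lower in every Delta-TRRAP library than in any WT library, and the 3 TET pairs overlap.

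The genes around each member were read to see whether they moved with it, a choice made with earlier results of these data known. For the 10 expressed genes on each side, the median log2 fold change was compared with -0.089, the median of all 11442 genes of that level. Around DNMT3B it was -0.49. All 20 neighbours were below the general median, and 19 passed the test as lower. DNMT3B fell by 0.68 more than its neighbours' median. The part of this shared fall in the DNMT3B result was not tested.

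Around UHRF1 the neighbours' median was -0.087, close to the general median, and 10 of 20 were below it. UHRF1 fell by 1.21 more than that median, with SNRPEP4 (-1.31) the only lower neighbour. DNMT1, TET1, DNMT3A and MBD2 also had neighbours near the general median, from -0.10 to -0.037. The neighbours' medians were lower for TET2 (-0.38), TDG (-0.26) and TET3 (-0.22). Around TET2 14 of 20 neighbours were below the general median. Around TDG and TET3 it was 11 of 20 each, as around DNMT3A. Past the test 10 fell and 6 rose around TDG, and 10 fell and 4 rose around TET3. The median for UHRF2 was higher (0.19), so that UHRF2 fell among genes of which 10 of 20 rose.

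**Figure D4:**
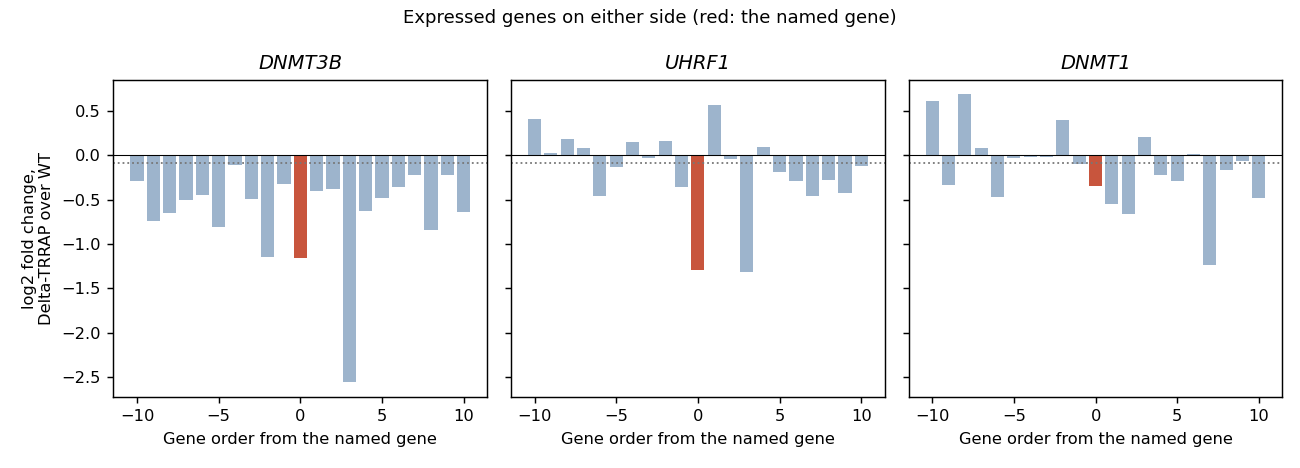
Log2 fold change of Delta-TRRAP over WT (vertical axis) for DNMT3B, UHRF1 and DNMT1 (red) and the 10 expressed genes on each side in chromosomal order (blue), with a dotted line at the median of expressed genes (-0.089). The bars around DNMT3B all point down, while those around UHRF1 and DNMT1 point both ways.

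Few uniquely placed reads were counted at pseudogenes or an antisense gene of the members. Reads that fit a gene and a copy equally well were not counted at either, and their number was not measured. The pseudogene TDGP1 had 6 to 14 counts per library, UHRF2P1 had 1 in total and TET1P1 none, and the antisense gene TET2-AS1 had 0 to 4.

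Of 15 cofactors of methylation 12 were tested, and 10 fell and 1 rose past the test, with a median log2 fold change of -0.45. All 12 had a mean of at least 1000 normalized counts, a level at which 45.9% of genes fell and 22.1% rose. LIG1, the replicative ligase that recruits UHRF1, was at -0.70, and TRIM28, a corepressor that directs silencing to repeats, at -0.59. DMAP1, which is also a TIP60 subunit, rose by 0.47. DNMT3L, the catalytically inactive partner of the de novo enzymes, had 1 count in all 6 libraries together.

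DNMT1 and UHRF1 act at replication, so S phase genes were listed beside them. Of 22 tested, 16 fell and 0 rose past the test, with a median of -0.37, where 45.9% of genes with at least 1000 normalized counts, as all 22 have, fell and 22.1% rose. CCNE1, the G1/S cyclin, was at -1.22 and MCM4, a helicase subunit, at -0.74. Summed normalized counts of the list lay between 187630 and 193480 in WT libraries and between 149110 and 151070 in Delta-TRRAP libraries, and the part of this shift in the falls of DNMT1 and UHRF1 was not tested.

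Readers other than MBD2 showed no common direction: 2 of 7 rose and 2 fell, with a median of 0.028, where 30.7% of all tested genes rose and 27.6% fell. Among genes of at least 1000 normalized counts, which 6 of the 7 were, 22.1% rose and 45.9% fell. ZBTB38 rose by 0.44, while MBD4 was at -0.25 and ZBTB33 at -0.23. Of the 12 NuRD subunits, the complex of MBD2, 8 fell and 1 rose, with a median of -0.31, against the same 45.9% and 22.1% for genes of at least 1000 normalized counts, which 11 of the 12 were. CDK2AP1 was called at -1.65 and HDAC2, a deacetylase, was at -0.62, whereas MTA3 rose by 0.52.

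Downstream of TDG, 4 of 10 excision repair genes fell and 1 rose, with a median of -0.23. The share that fell lay between the 27.6% of all tested genes and the 45.9% of those with at least 1000 normalized counts. PARP1, which signals strand breaks, was at -0.61 and APEX1, the abasic site nuclease, at -0.40. GADD45A, a stress-induced gene linked to demethylation, was called higher at 1.17.

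Enzymes of the methyl donor cycle were mixed, with 5 of 9 lower, 2 higher and a median of -0.26, shares near the 45.9% and 22.1% of genes with at least 1000 normalized counts. MTRR was at -0.65 and AHCY, which clears the product of methyl transfer, at -0.57, while MAT2B rose by 0.76. Among TET substrate and partner genes, 8 of 9 were tested, 4 fell and 1 rose, with a median of -0.18, also near that background. IDH2, which makes the TET cosubstrate, was at -0.80, and OGDH rose by 0.29.

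Germline genes that somatic cells usually keep methylated were mostly too low to test. Of 24 listed, 9 were tested, but TEX101 and PIWIL2 reached the filter only through their Delta-TRRAP libraries and are left out of the counts. Of the other 7, 4 rose and 3 fell, with a median of 0.63, where 30.7% of all tested genes rose and 27.6% fell. TUBA3C, which has near-identical copies, went from 38.9 to 503 normalized counts (3.69). TEX15 was called lower, from 5004 to 1946 (-1.36), as was SOHLH2 (-1.13). DNA methylation itself was not measured in these libraries.

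**Figure D5:**
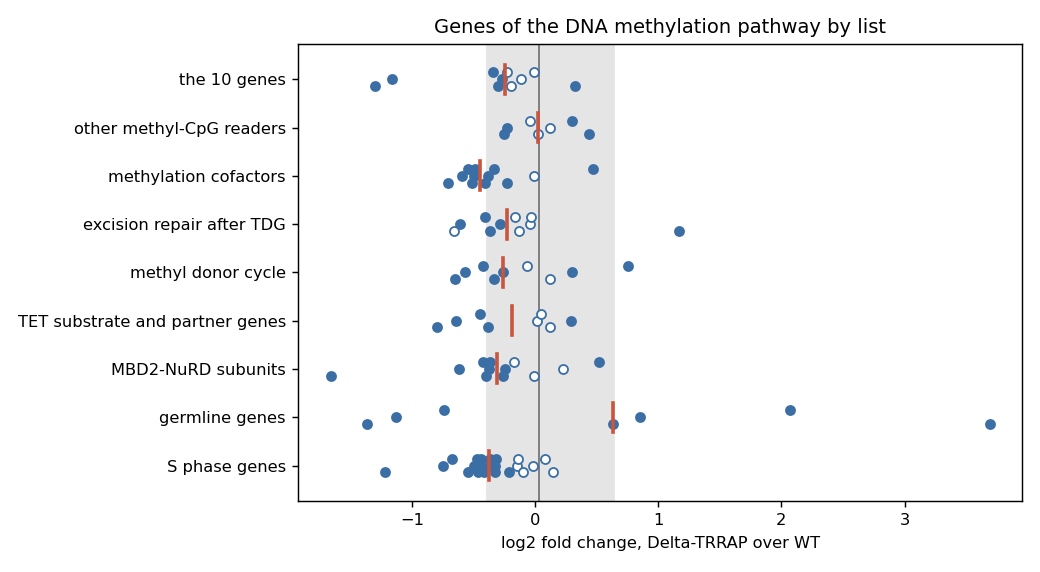
Log2 fold change of Delta-TRRAP over WT (horizontal axis) for the tested genes of each list, with filled points past an adjusted p of 0.01, a red bar at the list's median, and the median and middle 50% of all tested genes as a grey line and band. Genes under 5 normalized counts in either group are left out. Medians run from -0.45 for methylation cofactors to 0.63 for germline genes, and the other readers sit at 0.028.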

How the data were processed

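Poly(A) RNA of 6 K562 libraries was sequenced, 3 per group, grouped by sample title. The authors deposited counts per gene: STAR placed reads on hg38, only unique placements were kept, and HTSeq 2.0.2 counted them by strand (reverse, union mode) on GENCODE 32. A deposited normalized table, with 3 columns of another condition, and the authors' comparison table (fold changes and p-values) were not used here. Counts were tested with edgeR 4.0.16 (TMM, quasi-likelihood F test, group as the only term) in genes whose normalized count averaged 5 or more. The fit was tested on simulated data in which few genes changed, as many up as down. In the real libraries many genes changed, so the simulation does not check the scaling between libraries. Positions and exon lengths came from GENCODE 44. Ratios used a pseudocount of 0.5.

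The members and lists were chosen with earlier results of these data known. The first fit took TMM factors from all genes with a count. After member values had been seen, the factors were moved to the genes tested, and the neighbour reference was moved from all tested genes to those with a mean of at least 100. Both first versions are kept as alternatives. From each list up to 2 of the largest rises and 2 of the largest falls past the test are named, except some that are not reported here. SNRPEP4 and PIWIL2 were named after their values were seen. Alternatives were DESeq2 1.42.0, limma-voom (limma 3.58.1), other scalings, filters, thresholds and lengths, a replicate block and leaving out each library.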

Additional observations from a re-analysis of the deposited data

How the results depend on the processing

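The 2 calls (UHRF1 and DNMT3B) and the directions of DNMT1, DNMT3A, UHRF2 and TDG held under all 15 alternatives of the fit. The number of the 10 genes past the test was 6, but 5 under upper quartile or library size scaling, 8 with no filter (TET1 adjusted p = 7.82e-05 and TET2 0.00144, edgeR) and 9 without Delta-TRRAP replicate 2. Genes called numbered 4322, against 1964 at a minimum mean of 50 and 6750 at a fold of 1.5. The change of TET3 reversed under library size scaling (0.022), and that of MBD2 under upper quartile scaling (0.089), library size scaling (0.12) and the minimum of 50 (0.061), with -0.047 to 0.018 on leaving out single libraries. The cause was not tested.

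TMM factors from all genes with a count, the first version of the fit, gave 4307 called genes and the same counts of 2 and 6 among the 10. Relative to all tested genes, the reference first used and exchanged after its values had been seen, the neighbours' medians were -0.11 for DNMT1, -0.13 for DNMT3A, -0.52 for DNMT3B, -0.12 for UHRF1, 0.16 for UHRF2, -0.11 for TET1, -0.41 for TET2, -0.25 for TET3, -0.29 for TDG and -0.067 for MBD2. All are lower by construction, since the median of all tested genes is higher. On leaving out single libraries, the neighbours of TET3 ran from -0.16 to -0.081 relative to expressed genes, those of TDG from -0.17 to -0.12 and those of MBD2 from 0.042 to 0.082, and the TET1 to TET2 difference from -0.057 to 0.0089.

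Same-numbered libraries did not deviate together (correlations -0.0108, -0.035 and -0.0241), and the main fit used no pairing. These correlations cannot show whether same-numbered cultures were handled together. With a replicate block 4184 genes were called, and 2 of the 10 genes were called and 6 passed.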
